A study of Equus caballus with 37 samples.

Results

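Blood of untrained Arabian horses (T0) was compared with blood of Arabian race horses at the end of their racing season (T3). The comparison rests on 14 of the 37 blood RNA libraries of the experiment, 6 of T0 and 8 of T3, chosen by the period given in the sample titles. The T3 labels place the sampling in October, while the T0 labels give no month and the October date of T0 comes from the study plan. The T0 libraries are of 2 mares and 4 stallions, labelled 2.5 years old except replicate 2, which is labelled 3 years old. The T3 libraries are of 4 mares and 4 stallions, all labelled 3 years old. Blood of both groups was taken from the jugular vein into Tempus tubes, which lyse cells and fix RNA at collection, and horses of both groups came from the same stud. The publication places the sampling of each period at the same time of day, after the morning feed and before training. No horse is named in the labels, the horses of the groups were not all the same, and some horses may stand in both groups. By the publication, the added feed depended on the training stage, and the T3 samples were spread over more sequencing pools than the T0 samples. Training, age, the choice of horses and any difference in feed or pool therefore differed together between T0 and T3 and cannot be told apart. The remaining libraries, after the slow canter phase (T1) and after the intense gallop phase (T2), are given only as levels beside T0 and T3.

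RNA from whole blood comes from neutrophils, lymphocytes, monocytes, platelets and immature red cells together. Racing alternates bouts of intense work with recovery, and exercise is known to shift the numbers of circulating leukocytes and their state through stress hormones and cytokines. Much of the response to such hormones runs through nuclear receptors and the coactivators that join them to chromatin. Surveillance by cytotoxic cells rests on MHC class I molecules, which present peptides from inside the cell. In such mixed samples, fewer cells of a type and less RNA per cell cannot be told apart.

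A level is given as CPM, the counts of a gene scaled to a fixed total of counts with TMM factors, which correct for differences in RNA composition between libraries. A change is the log2 fold change of T3 over T0 from edgeR, so that a positive value means a higher level in T3. A gene was called differentially expressed at a Benjamini-Hochberg adjusted p-value below 0.05 from edgeR's quasi-likelihood test and a fold change of at least 1.3. The total of counts was between 10416083 and 14932603 per library, and at the median total 1 CPM rests on about 11.6 reads. The 8 T3 libraries had a mean total of 12654300 ± 1556290 (SD) and the 6 T0 libraries of 11219300 ± 580711 (exact two-sided permutation test, p = 0.0556, adjusted p = 0.111 over 4 library measures). In T0 the 10 most abundant genes took 7.53 ± 0.54% of counts (SD, n = 6), against 6.79 ± 0.51% in T3 (SD, n = 8; exact permutation test, p = 0.0233, adjusted p = 0.0932). The 5 most abundant genes summed to between 5.17% and 5.93% of counts in T0 and to between 4.25% and 5.36% in T3, and none of them was called. Of 744 gene symbols chosen for cell types and pathways, 12 could be paired with the Ensembl identifiers of the counts, so that the labelled tissue could not be checked against its markers and no pathway list was used.

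At the end of the season, more of the well expressed genes were higher than lower. Of 11696 tested genes 19.6% were differentially expressed, 10.4% higher and 9.21% lower in T3. Among the 705 genes with a mean level over 256 CPM (edgeR's mean of the 14 libraries), 169 were higher and 74 lower, and between 64 and 256 CPM 371 of 2315 genes were higher and 176 lower. The balance was the other way among the 2881 genes between 4 and 16 CPM, where 178 were higher and 316 lower. Under 4 CPM, 122 of 1871 genes were higher and 111 lower, and between 16 and 64 CPM 378 of 3924 were higher and 400 lower. Low counts limit what can be called, and the share of genes called rose from 12.5% under 4 CPM to 34.5% over 256 CPM.

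**Figure D1:**
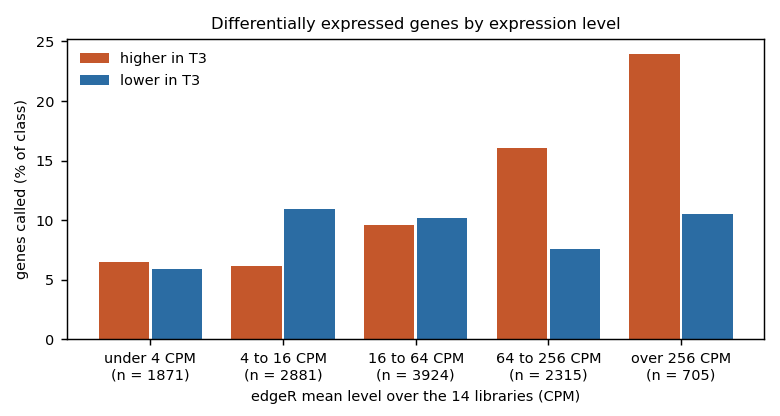
Share of tested genes called higher (orange) or lower (blue) in T3 than in T0, in percent of the genes of each class of mean level (edgeR's mean over the 14 libraries, in CPM, n genes per class under the axis). The share called higher is largest over 256 CPM, where 169 of 705 genes were higher and 74 lower, and the share called lower exceeds it between 4 and 16 CPM, with 316 against 178 of 2881 genes.

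Rises were larger than falls. The median log2 fold change was 0.71 (quartiles 0.53 and 0.99) among the 1218 genes called higher and -0.54 (quartiles -0.68 and -0.45) among the 1077 called lower. Among genes called at a fold change between 1.3 and 1.5, 418 were higher and 633 lower, while between 1.5 and 2 it was 502 and 365, and at a fold change of at least 4 it was 30 and 11. The T0 and T3 libraries did not overlap in CPM for 461 genes (3.94% of those tested), of which 313 (2.68%) were higher in T3 and 148 (1.27%) lower. Of the genes called higher, 274 did not overlap, and of those called lower, 131.

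Levels in the training periods stand between or beyond those of T0 and T3, with T0 and T3 shared with the comparison. The publication lists a lower share of uniquely mapped reads for every T1 library and several T2 libraries than for any T0 or T3 library. Whether this bears on the T1 and T2 levels, here and for single genes below, was not tested. Over the genes called higher, the median of the group means of log2 CPM went from 4.96 (T0) through 4.81 (T1) and 5.05 (T2) to 5.69 (T3). For the genes called lower these medians were 4.503, 4.68, 4.40 and 3.92, and for the genes not called 4.18, 3.89, 4.06 and 4.15.

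For 73 of the tested genes a name or protein family could be given, because the publication prints it beside the Ensembl identifier. Many were picked there as regulated by training, some of them on these same libraries, so that their direction is not independent evidence. In this comparison 4 of the 73 were called, 2 higher and 2 lower, or 5.48% against 19.6% of all genes tested. A log2 fold change above 0 was found for 55 of the 73 and for 48.5% of all genes tested, and an unadjusted p-value below 0.05 for 14 of the 73 and for 37.5% of all genes. Over the 73 the median log2 fold change was 0.17, beside -0.01 over all genes tested. Of the 73, only NHSL2 and APOBEC3Z2E had no overlap of T0 and T3 libraries in CPM, where 3.94% of all genes tested had none.

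**Figure D2:**
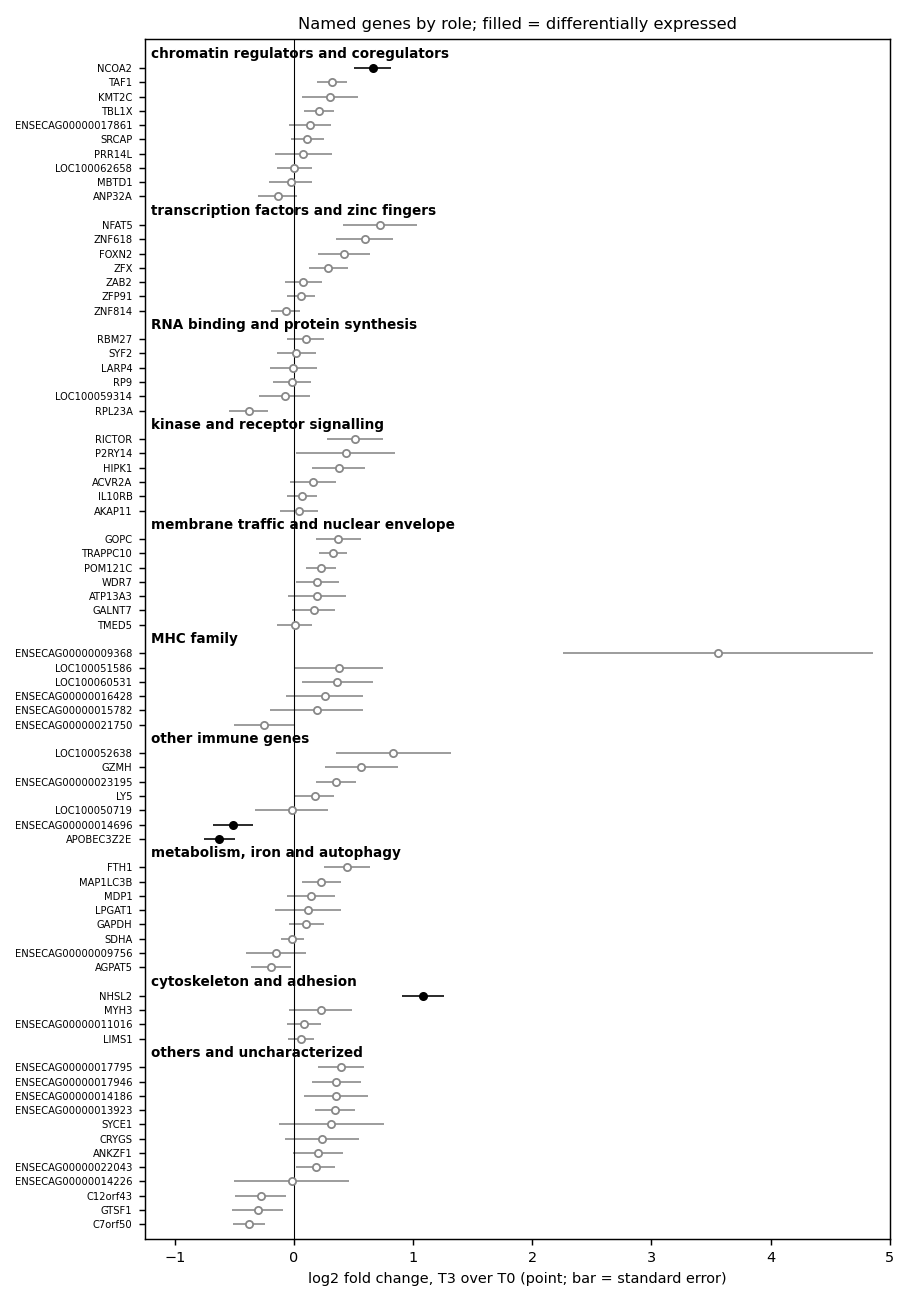
Log2 fold change of T3 over T0 (points) with its standard error from edgeR (bars) for the 73 named genes, grouped by role, with filled points for differentially expressed genes. NHSL2 and NCOA2 are the filled points to the right of 0, APOBEC3Z2E and ENSECAG00000014696 those to the left, and ENSECAG00000009368 of the MHC family has the largest value and the widest bar.

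NHSL2 (ENSECAG00000002472), a little studied relative of the NHS protein that acts on actin at the cell edge, was higher at the end of the season. Its level in T0 was 29.4, 29.9, 19.3, 22.6, 22.7 and 22.3 CPM in replicates 1 to 6, and in T3 it was 38.1, 31.5, 68.1, 49.7, 42.2, 72.6, 54.4 and 60.1 CPM in replicates 1 to 8. Every T3 library was above every T0 library, as held for 2.68% of all genes tested. From 24.4 ± 4.29 CPM (SD, n = 6) in untrained horses the mean went to 52.1 ± 14.5 CPM (SD, n = 8) in raced horses, and the log2 fold change was 1.08 (95% confidence interval 0.71 to 1.45, edgeR adjusted p = 0.00138). The mean level was 11.9 CPM in T1 and 19.3 CPM in T2, so that T3 was the highest of the 4 periods. The 3 other genes of the cytoskeleton and adhesion were not called, with log2 fold changes of 0.23 (standard error 0.27) for MYH3, an embryonic myosin heavy chain, 0.06 (standard error 0.11) for LIMS1, an adaptor of integrin adhesions, and 0.08 (standard error 0.14) for ENSECAG00000011016, of the intermediate filament family.

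NCOA2 (ENSECAG00000008394), a coactivator of nuclear receptors such as the glucocorticoid receptor, was also higher in T3. Its level was 86.6, 86.7, 76.4, 63.8, 76.9 and 87.7 CPM in T0 replicates 1 to 6, and 92.4, 74.5, 161.4, 118.3, 142.7, 164.6, 146.3 and 120.2 CPM in T3 replicates 1 to 8. All T3 libraries except replicate 2 were above the highest T0 library. The log2 fold change was 0.66 (95% confidence interval 0.34 to 0.98, edgeR adjusted p = 0.00663), and the call was lost with all 37 libraries in a single fit (edgeR adjusted p = 0.104). NCOA2 was at 29.6 CPM in T1 and 39.8 CPM in T2, below both T0 and T3.

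Of the other 9 chromatin regulators and coregulators none was called, where 19.6% of all genes tested were, and over all 10 the median log2 fold change was 0.12, beside -0.01 over all genes. TAF1, the largest subunit of the general transcription factor TFIID, lay between 50.2 and 67.2 CPM in T0 and between 52.6 and 101.8 CPM in T3, with 6 of 8 T3 libraries above every T0 library (log2 fold change 0.32, standard error 0.13, edgeR adjusted p = 0.0809). KMT2C, a histone methyltransferase, lay between 74.4 and 119.0 CPM in T0 and over a wider range in T3, from 52.3 to 170.7 CPM. Its T3 libraries fell on both sides of T0, 4 above all T0 libraries and 2 below all of them, and the log2 fold change was 0.30 (standard error 0.24). SRCAP, an ATPase that places a histone variant, also had T3 libraries on both sides of T0, 4 above and 3 below its range of 137.0 to 150.8 CPM. Its T3 libraries lay between 106.8 and 200.7 CPM. For TBL1X, a part of corepressor complexes, the log2 fold change was 0.21 (standard error 0.13). The value of ANP32A, an acidic nuclear protein that binds histones, was -0.14 (standard error 0.16).

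**Figure D3:**
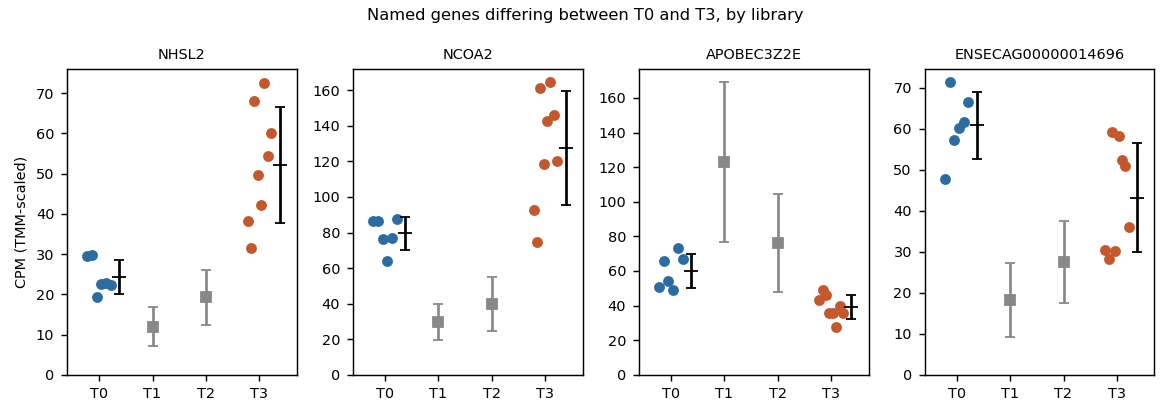
CPM (TMM-scaled) of the 4 named genes called between T0 and T3, with 1 point per library for T0 (blue) and T3 (orange), the group mean and SD in black beside them, and the mean and SD of T1 (n = 12) and T2 (n = 11) in grey. NHSL2 and APOBEC3Z2E have no overlap of T0 and T3 libraries, as is so for 3.94% of all genes tested. NCOA2 overlaps in T3 replicate 2, and ENSECAG00000014696 has 4 T3 libraries below the T0 range and 4 within it.

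Among immune genes outside the MHC, 2 of 7 were called, both lower in T3, where 19.6% of all genes tested were called and 9.21% were lower. APOBEC3Z2E (ENSECAG00000007726), a cytidine deaminase of the family that restricts retroviruses, was at 50.7, 65.8, 54.2, 49.1, 73.3 and 66.7 CPM in T0 replicates 1 to 6, and at 43.3, 48.8, 46.3, 35.7, 35.4, 27.8, 39.5 and 35.8 CPM in T3 replicates 1 to 8. Every T3 library was below every T0 library, as held for 1.27% of all genes tested. From 60.0 ± 9.94 CPM (SD, n = 6) in untrained horses the mean went to 39.1 ± 6.85 CPM (SD, n = 8) in raced horses, and the log2 fold change was -0.63 (95% confidence interval -0.90 to -0.35, edgeR adjusted p = 0.00403). With all 37 libraries in a single fit the call was lost (edgeR adjusted p = 0.0996). The T1 mean was 123.0 CPM and the T2 mean 76.0 CPM, so that T3 was the lowest of the 4 periods. The APOBEC3 genes of a species resemble each other, and reads that they share could be divided between them by the counting.

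ENSECAG00000014696, related to the interferon-activable protein 203, had 47.8, 71.4, 57.4, 60.2, 61.8 and 66.6 CPM in T0 replicates 1 to 6 and 30.4, 28.2, 59.4, 30.3, 58.2, 52.5, 50.9 and 36.2 CPM in T3 replicates 1 to 8. T3 replicates 1, 2, 4 and 8 were below every T0 library, and the other T3 libraries were within the range of T0. The log2 fold change was -0.51 (95% confidence interval -0.87 to -0.15, edgeR adjusted p = 0.0372). The call was lost without any of T0 replicates 2 to 6 or of T3 replicates 1, 2, 4 and 8, with log2 fold changes between -0.53 and -0.43 and adjusted p-values up to 0.0950. It was also lost with all 37 libraries in a single fit (edgeR adjusted p = 0.338), with the fold threshold inside the test (glmTreat, edgeR adjusted p = 0.507) and with no filter on low counts (edgeR adjusted p = 0.0503). The level was 18.3 CPM in T1 and 27.5 CPM in T2.

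The 5 other immune genes did not pass the test. GZMH, a granzyme of cytotoxic lymphocytes, ranged from 16.5 to 66.9 CPM in T0 and from 31.2 to 102.3 CPM in T3 (log2 fold change 0.57, standard error 0.30, edgeR adjusted p = 0.186), and it passed with sex as a term (0.73, edgeR adjusted p = 0.0455). LOC100052638, of the same granzyme family, ranged from 11.1 to 50.2 CPM in T0 and from 3.94 to 93.4 CPM in T3, where replicate 7 was the lowest of all 14 libraries (log2 fold change 0.83, standard error 0.48). The granzymes may share reads, which makes their separate values uncertain. ENSECAG00000023195, of the TRIM25 family of ubiquitin and ISG15 ligases, gave a log2 fold change of 0.35 (standard error 0.17, edgeR adjusted p = 0.131). It passed without T0 replicate 6 (0.47) and without T3 replicate 1 (0.43). LY5, a receptor of the lymphocyte antigen 75 family, ranged from 68.7 to 151.2 CPM in T3 and from 79.2 to 127.6 CPM in T0.

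None of the 6 MHC family genes was called, beside 19.6% of all genes tested, and their spread between horses was wide. ENSECAG00000009368, of the MHC class I family, was at 67.1, 42.5, 10.5, 21.6, 13.8 and 13.7 CPM in T0 replicates 1 to 6. In T3 it was at 1544 CPM in replicate 1 and 1023 CPM in replicate 6, and in replicates 2, 3, 4, 5, 7 and 8 at 20.7, 10.95, 27.1, 25.9, 11.3 and 13.4 CPM. The 2 high libraries, both of mares, set the log2 fold change of 3.56 (standard error 1.3, edgeR adjusted p = 0.0556), while the other 6 T3 libraries lay within the range of T0. The gene passed the test without T0 replicate 1 (4.04) and without any of T3 replicates 2, 3, 4, 5 and 7 (3.74 to 3.75), and DESeq2 gave -0.50. With sex as a term its log2 fold change was 0.84 (edgeR adjusted p = 0.674). Levels of the same gene were as uneven in T1, with a mean of 1315 ± 2134 CPM (SD, n = 12), and in T2, with 756 ± 1048 CPM (SD, n = 11).

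The other class I genes differed less between horses. LOC100051586 ranged from 329.8 to 1161 CPM in T0 and from 375.9 to 2202 CPM in T3, ENSECAG00000015782 from 231.8 to 824.2 CPM and from 258.0 to 1462 CPM, and ENSECAG00000021750 from 246.9 to 466.2 CPM and from 168.8 to 540.1 CPM. Their log2 fold changes were 0.38 (standard error 0.37), 0.19 (standard error 0.39) and -0.25 (standard error 0.25). ENSECAG00000016428 had 0.26 (standard error 0.32), and LOC100060531, of the class II DQ beta family, 0.36 (standard error 0.30). Both periods overlapped in each of them. Horses carry different MHC genes and alleles that are alike in sequence, so that reads may be assigned to one copy or another, and these values are uncertain for a single gene.

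**Figure D4:**
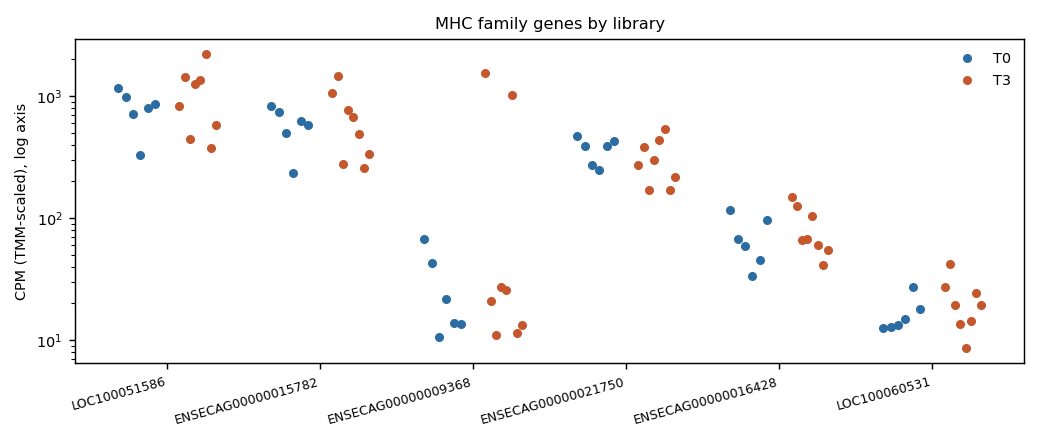
CPM (TMM-scaled, log axis) of the 6 MHC family genes in the 6 T0 libraries (blue) and the 8 T3 libraries (orange), with points in the order of the replicates. In ENSECAG00000009368 T3 replicates 1 and 6 stand at 1544 and 1023 CPM and the other 12 libraries between 10.5 and 67.1 CPM, while T0 and T3 overlap in every gene shown.

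None of the transcription factors, kinases and trafficking genes was called, beside 19.6% of all genes tested. Of the 7 transcription factors and zinc finger genes 6 had a positive log2 fold change, of the 6 genes of kinase and receptor signalling all 6, and of the 7 of membrane traffic and the nuclear envelope all 7, with medians of 0.29, 0.27 and 0.20 beside -0.01 over all genes. Some of these genes had been picked on these libraries. Without T3 replicates 3, 5, 6 and 7 the medians were -0.07, -0.01 and -0.18. They were 0.49, 0.30 and 0.49 without T3 replicates 1, 2, 4 and 8. These sets of libraries were formed after the genes were seen to differ between them, so the medians are a description only. NFAT5, a transcription factor of the response to osmotic stress, ranged from 11.1 to 20.6 CPM in T0 and from 8.05 to 50.3 CPM in T3, and its log2 fold change was 0.72 (standard error 0.31, edgeR adjusted p = 0.102). Values of 0.59 (standard error 0.24) were found for ZNF618, a zinc finger gene, and of 0.42 (standard error 0.22) for FOXN2, a forkhead factor. RICTOR, the defining subunit of the kinase complex mTORC2, ranged from 19.4 to 29.6 CPM in T0 and from 17.0 to 54.7 CPM in T3 (log2 fold change 0.51, standard error 0.23, edgeR adjusted p = 0.121). HIPK1, a nuclear kinase that acts on transcription factors, had 0.37 (standard error 0.22). TRAPPC10, a subunit of a vesicle tethering complex, ranged from 43.4 to 51.0 CPM in T0 and from 39.5 to 73.8 CPM in T3 (log2 fold change 0.33, standard error 0.12, edgeR adjusted p = 0.0522). GOPC, a Golgi scaffold, had 0.37 (standard error 0.19).

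Without T3 replicate 2, NFAT5 (0.87), RICTOR (0.62), TAF1 (0.39), TRAPPC10 (0.41) and ZNF618 (0.70) were among the named genes called, the last also without T3 replicate 1 (0.68). In the fit without T3 replicate 2, 9 of the 73 named genes were called higher and 2 lower (15.1%), beside 20.1% of all genes tested.

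None of the 6 genes of RNA binding and protein synthesis and of the 8 of metabolism, iron and autophagy was called, beside 19.6% of all genes tested. Log2 fold changes lay between -0.38 and 0.10 in the first group and between -0.19 and 0.45 in the second. RPL23A, a protein of the large ribosomal subunit, ranged from 139.6 to 313.0 CPM in T0 and from 115.1 to 244.5 CPM in T3 (log2 fold change -0.38, standard error 0.16, edgeR adjusted p = 0.101). It passed without T0 replicate 1 (-0.49) and without T3 replicate 2 (-0.46), and ribosomal protein genes have many processed copies that can share reads. FTH1, the heavy chain of the iron store ferritin, was at 974, 1034, 881, 756, 832 and 865 CPM in T0 replicates 1 to 6 and at 1632, 1713, 953, 1401, 835, 845, 914 and 1440 CPM in T3 replicates 1 to 8. T3 replicates 1, 2, 4 and 8 were above every T0 library and the other 4 within the range of T0, and the log2 fold change was 0.45 (standard error 0.19, edgeR adjusted p = 0.0975). It passed once a first surrogate variable was added to the model (0.48, edgeR adjusted p = 0.00196). The autophagy gene MAP1LC3B had the same 4 T3 libraries above the highest T0 library of 75.04 CPM, with 97.3, 110.3, 86.3 and 87.1 CPM. T3 replicate 5, at 47.0 CPM, was below the lowest T0 library of 57.4 CPM. The log2 fold change of MAP1LC3B was 0.23 (standard error 0.17, edgeR adjusted p = 0.329). The reference genes SDHA and GAPDH, of the citric acid cycle and of glycolysis, had log2 fold changes of -0.01 (standard error 0.10) and 0.10 (standard error 0.14). The last 12 named genes, of other or unknown function, lay between -0.38 and 0.39, with 8 above 0 and none called, beside the same 19.6%.

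The T3 libraries differed among themselves in many of these genes. T3 replicates 1, 2, 4 and 8 had TMM factors of 0.945, 0.916, 0.891 and 0.951, all below the T0 range of 0.9999 to 1.03, while T3 replicates 3, 5, 6 and 7 lay between 1.02 and 1.09. They are 2 mares and 2 stallions, as are the other 4. On the first principal component of the 14 libraries (29.9% of variance), T0 libraries scored between -39.7 and -1.38 and T3 libraries between 3.90 and 36.1. On the second (15.9%), T3 replicates 1, 2 and 4 scored between 13.5 and 27.8 and replicate 8 scored -6.42. T3 replicates 3, 5, 6 and 7 scored between -32.1 and -16.9 on it. In 28 of the 73 named genes (38.4%) T3 replicates 1, 2, 4 and 8 were all below the other 4. In 7 (9.59%) they were all above. Of all genes tested these shares were 14.1% and 7.87%. The TMM factor is computed from the same counts. With its log2 as a covariate, a fit chosen after seeing the data, 12 of the 73 named genes were called higher and 3 lower (20.5%), where of all genes tested 20.7% were called, 10.3% higher and 10.3% lower.

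Values without either set of 4 T3 libraries are given here as a description. The sets were formed after these genes were seen to differ between them, by a factor from the same counts. The fits without them share the T0 libraries. Their values and p-values therefore support nothing about the named genes, singly or as a group. NHSL2 had a log2 fold change of 1.23 without the libraries of low TMM factor and of 0.90 without those of high factor (edgeR adjusted p = 0.00177 and 0.00635), and APOBEC3Z2E had -0.74 and -0.52 (edgeR adjusted p = 0.00746 and 0.0194). The corresponding values of NCOA2 were 0.90 and 0.37, of which the second missed the threshold (edgeR adjusted p = 0.0756). ENSECAG00000014696 had -0.19 (edgeR adjusted p = 0.190) and -0.93 (edgeR adjusted p = 0.00117). FTH1 had -0.06 and 0.82.

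**Figure D5:**
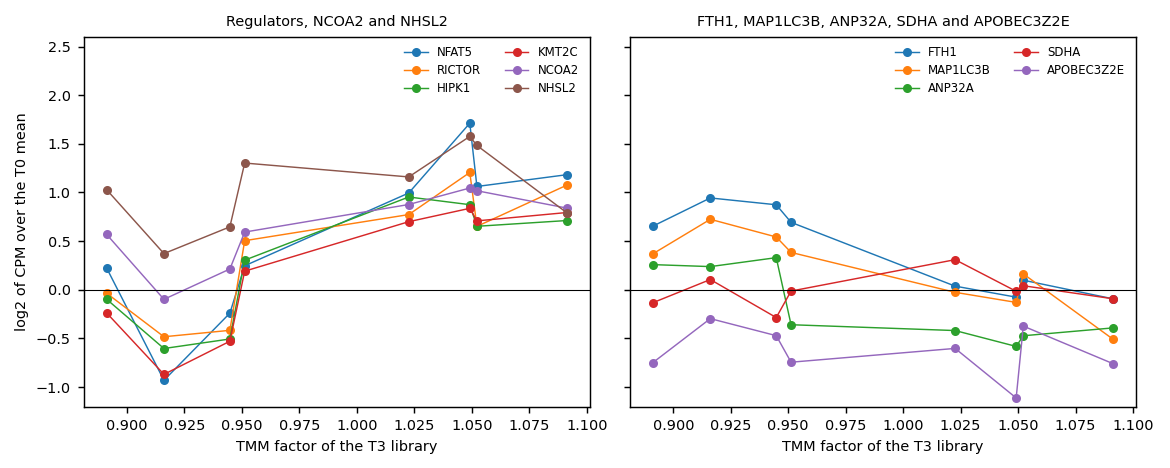
Log2 ratio of the CPM in each T3 library to the mean CPM of T0 (vertical axis) against the TMM factor of the library (horizontal axis) for 11 named genes, with lines joining the points of a gene. NFAT5, RICTOR, HIPK1 and KMT2C lie lowest in T3 replicate 2 (factor 0.916) and higher in the 4 libraries with factors over 1.02, FTH1 and MAP1LC3B lie highest in replicate 2, NHSL2 is above 0 and APOBEC3Z2E below 0 in all 8 libraries.

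Among genes without a name, the largest rises and falls rested on few libraries in 3 of 4 cases. ENSECAG00000022371, with the largest rise, was between 0.215 and 6.42 CPM in T0 and at 72.7, 52.4, 27.2, 77.6, 21.3, 100.1, 2.57 and 39.4 CPM in T3 replicates 1 to 8. All T3 libraries except replicate 7 were above T0, and the log2 fold change was 3.82 (standard error 0.68, edgeR adjusted p = 0.00192). ENSECAG00000016421 was at 240 CPM in T3 replicate 4 and between 5.63 and 35.8 CPM in the other T3 libraries, against 0.794 to 17.1 CPM in T0 (log2 fold change 3.12, standard error 0.96, edgeR adjusted p = 0.0271). Its call was lost without T3 replicate 4 (1.64) and without any of T0 replicates 3 to 6 (2.89 to 3.09), also with all 37 libraries in a single fit (edgeR adjusted p = 0.0715), and DESeq2 gave 1.56. ENSECAG00000006522 was at 396 CPM in T0 replicate 4 and 115 CPM in T0 replicate 5, between 7.39 and 9.80 CPM in the other T0 libraries and between 0.247 and 13.9 CPM in T3 (log2 fold change -3.74, standard error 0.93, edgeR adjusted p = 0.00953). Without T0 replicate 4 the value was -2.13 and the call was lost. ENSECAG00000010014 was at 36.9, 26.1 and 24.97 CPM in T0 replicates 1 to 3, at 2.11 to 6.63 CPM in T0 replicates 4 to 6, and at 0.230 to 9.17 CPM in T3 (log2 fold change -2.64, standard error 0.79, edgeR adjusted p = 0.0240). Its call was lost without T0 replicate 1 (-2.22) and without T0 replicate 3 (-2.49).

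Mares and stallions were tested for a different change from T0 to T3. The interaction of sex and period was called for no gene by edgeR at an adjusted p-value below 0.05 (242 genes, 2.07%, at an unadjusted p-value below 0.05), and by DESeq2 for 1 gene. From T0 to T3, NHSL2 had a log2 fold change of 1.03 in mares and 1.09 in stallions, NCOA2 of 0.78 and 0.58, APOBEC3Z2E of -0.65 and -0.57, and ENSECAG00000014696 of -0.69 and -0.38. With 2 mares in T0, a difference between the sexes would have to be large to be called.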

How the data were processed

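The authors trimmed reads with Flexbar, aligned them with STAR to EquCab2 and estimated counts per gene of Ensembl release 83 with RSEM. The deposited table holds these expected counts rounded to whole numbers, without normalization, for 26991 genes. The library kit does not mark strand, so overlapping and antisense genes share reads, and RSEM divides reads between similar genes. The deposited tables per comparison were not used.

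Libraries were grouped by title, and the sequencing pools were not used, since the labels give no pool for a library. The 14 libraries were fitted by edgeR 4.0.16 under R 4.3.3 (filterByExpr, which left 11696 of 19672 genes with a count, TMM factors, glmQLFit and glmQLFTest without covariates). The standard error of a log2 fold change is its size over the root of the F statistic. CPM shown use TMM factors over all 37 libraries, for 1 scale in all periods. The code was tested on simulated data. No 2 libraries were duplicates (lowest chi-square per degree of freedom 19.0 over 91 pairs). By the sampling plan of the publication, libraries of a group are of separate horses, though the labels name none. The p-values measure the spread between the horses of a group, and horses that may stand in both groups were treated as independent. Replicate numbers did not pair the libraries, since the T0 and T3 libraries numbered 1, 2 and 6 differ in labelled sex. Correlations of deviations between libraries of the same number were -0.17 to 0.21, 2 of 6 over 0.1.

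Gene names came from 73 identifiers printed with a name in the paper, since the RefSeq table lists 0 horse Ensembl identifiers. Besides these, the 2 largest rises and falls at a mean of at least 50 counts are given. The members and lists were chosen with earlier results of these data known. Alternatives were DESeq2 1.42.0, RLE factors, other filters, sex, age, replicate block, all libraries, glmTreat, thinning, sva 3.50.0 and each library left out.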

Additional observations from a re-analysis of the deposited data

Results flagged for a closer look

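Single libraries stood apart from their group, by a gap to the nearest library above the 95% critical value of Dixon's test, in 9 of 162 sets of values examined (5.56%), where chance gives about 1 in 20. ENSECAG00000006522 stood at 396 CPM in T0 replicate 4, and ENSECAG00000016421 at 240 CPM in T3 replicate 4 and at 17.1 CPM in T0 replicate 2. ENSECAG00000014226, an uncharacterized protein, stood at 1068 CPM in T3 replicate 2 and was lowest in T0 replicate 1, at 127 CPM. T3 replicate 2 was also the highest of its group for GTSF1, a gametocyte gene, at 17.2 CPM, and for SYCE1, a gene of the meiotic synaptonemal complex, at 6.06 CPM. T0 replicate 5 was the highest of its group for TMED5, a cargo receptor of the early secretory pathway, at 45.0 CPM, and for the class II MHC gene LOC100060531, at 27.0 CPM.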

How the results depend on the processing

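The number of genes differing between T0 and T3 (2295, with 1218 higher and 1077 lower) stayed within 1.5 times that value with DESeq2 (2501), RLE factors (2277), no filter on low counts (2095), the stricter filter (2056), sex as a term (2192), no fold threshold (2899), thinned libraries (2246) and the first surrogate variable (2682). It was 717 (440 higher, 277 lower) with all 37 libraries in one fit and 282 (216 higher, 66 lower) with the fold threshold tested by glmTreat. In those fits edgeR no longer called NCOA2, APOBEC3Z2E, ENSECAG00000014696, ENSECAG00000016421 and ENSECAG00000010014. Mares alone gave 0 calls by edgeR (2205 genes at an unadjusted p-value below 0.05), 0 higher and 0 lower, and stallions alone gave 12, of which 12 higher and 0 lower, from fewer libraries. The sex by period interaction was called for 1 gene by DESeq2 and 0 by edgeR. The replicate block on numbers 1 to 6 does not pair horses, since numbers 1, 2 and 6 join libraries of different labelled sex. With it the number of differing genes was 1457 (873 higher, 584 lower), of which 1377 were called in the same direction without it. Of the 6 T0 libraries, 2 correlated best with the T3 library of their own number. With that block edgeR called LOC100052638 (0.98, adjusted p = 0.0397) and no longer ENSECAG00000014696 (adjusted p = 0.0574), ENSECAG00000016421 (adjusted p = 0.0685) and ENSECAG00000006522 (-1.97, adjusted p = 0.292).

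Leaving out 1 library gave between 1646 and 2873 differing genes, 877 to 1505 higher and 766 to 1368 lower. The difference in total counts was then between 1109530 and 1741960, in genes detected between 220.5 and 377.6 (303.1 with all libraries), in the share of the 10 most abundant genes between -0.94 and -0.62 percentage points, and in the TMM factor between -0.042 and -0.013. With all libraries thinned to the smallest total, the difference in genes detected was 128.75 (exact permutation test, p = 0.343). Without thinning, unadjusted exact p-values crossed 0.05 for the total without T3 replicate 2, 4 or 8 and for genes detected without T3 replicate 2. They also did so for the 10 most abundant genes without T0 replicate 4, 5 or 6. Over 36 genes with a printed log2 fold change and these 14 settings, 465 of 504 values kept direction and side of the threshold and 6 changed sign, those of ENSECAG00000015782 (range -0.079 to 0.32) and SDHA (range -0.059 to 0.036).

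In the other 19 settings 586 of 681 values did so and 27 changed sign. They were ENSECAG00000009368 with DESeq2 (-0.50) and in stallions (-0.59), SDHA with RLE factors (0.0012), sex as a term (0.0045), in mares (0.096), over genes with at least 6 counts in all 37 libraries (0.0060) and without the 4 T3 libraries of lowest TMM factor (0.019), ENSECAG00000011016 with the replicate block (-0.0011) and in mares (-0.10), ANP32A in mares (0.035), GAPDH in stallions (-0.045), and ENSECAG00000015782 (-0.097) and GAPDH (-0.011) with the log2 TMM factor as a covariate. Without the 4 T3 libraries of lowest TMM factor ENSECAG00000015782 (-0.52), ENSECAG00000016428 (-0.089), LOC100060531 (-0.019), FTH1 (-0.058), MAP1LC3B (-0.16) and GAPDH (-0.062) changed sign, and without the 4 of highest factor LIMS1 (-0.086), ENSECAG00000011016 (-0.089), KMT2C (-0.28), ANP32A (0.17), NFAT5 (-0.073), RICTOR (-0.024), HIPK1 (-0.15) and GOPC (-0.072). The cause was not tested. The settings on the TMM factor and on 6 counts in all libraries were chosen after seeing the data. With glmTreat and with no fold threshold the log2 fold changes are those of the reported fit, so no sign could change there. The age setting leaves out T0 replicate 2 and repeats a fit already counted among those without 1 library. Low counts limit the genes under 4 CPM, of which 12.5% were called.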
